A study of Caenorhabditis elegans with 3 samples.

Results

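The heterochronic genes of Caenorhabditis elegans are the genes that tell cells of the larva which developmental stage they are in. They were chosen here by symbol from a list of 7: lin-14, lin-28, lin-29, lin-41, lin-42, lin-46 and hbl-1. Of these, 6 were measured by array features assigned to a single gene, out of 19300 genes and unnamed features tested. lin-28 had no such feature in the annotation used and was not analysed here. The heterochronic genes and all lists below were chosen with earlier results of these data known, so their counts are descriptions.

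The study hybridised 3 two-colour DNA microarrays. Channel 2 of each array held RNA from adult hermaphrodites with embryos, a sample the labels call TP10, and channel 1 held RNA of a wild-type mixed reference. The labels number the TP10 RNA as preparations 1, 2 and 3, give no genotype, strain or age in hours for it, and do not say which stages the reference mixed. They do not state that separate cultures were used. The main p-values set each mean ratio against a spread between these 3 RNA samples. That spread is moderated: it draws on all genes and features as well as the gene's own values, and it may be technical only. Each array has its own date, so preparation, array and day cannot be told apart.

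All values below are log2 ratios of TP10 over the mixed reference, centred on each array's median, so 1 log2 unit is a 2-fold difference. A positive value means higher in TP10 relative to the median gene. No dye is named in the labels, so this direction is likely rather than settled: the sample descriptions name TP10 ahead of the reference, and channel 2 held TP10. Were the deposited table inverted, every higher would read lower. Because RNA came from whole animals, fewer cells of a type and less RNA per cell cannot be told apart. Arrays 1, 2 and 3 carried 19864, 19855 and 19854 values, and the spread of their ratios was wider on arrays 1 and 2 (SD 0.888 and 0.848 log2) than on array 3 (SD 0.674). Without spot intensities, whether a feature was above background is not known here. Precision is limited by the 3 arrays.

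In the larva, timing runs as a chain of repressors. LIN-14 and HBL-1 hold cells in early fates, the microRNAs lin-4 and let-7 shut the early genes off in turn, and LIN-28 keeps let-7 from being made too soon. When let-7 rises late in larval life it represses lin-41, which frees the transcription factor LIN-29 to start the adult program in the skin: seam cells stop dividing, fuse and make adult cuticle. LIN-41 has a second, separate place of action, in the hermaphrodite germ line, where it controls the growth of oocytes and their meiotic maturation. The adult hermaphrodite with embryos has completed the larval program and is filled with oocytes and developing embryos.

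Of the 6 measured heterochronic genes, lin-41 was higher in TP10 and lin-29 and lin-42 were lower, while hbl-1, lin-14 and lin-46 did not pass the test. lin-41, which encodes a TRIM-NHL RNA-binding protein, stood at 1.99 ± 0.53 log2 (SD, n = 3), or 3.97-fold higher. lin-29, which encodes the zinc finger factor of the larval-to-adult switch, stood at -1.03 ± 0.46, or 2.04-fold lower. lin-42, the worm relative of the circadian gene Period, stood at -0.47 ± 0.23, or 1.39-fold lower. The test was limma's moderated test of the mean against 0, with p-values adjusted over all 19300 genes and features and a threshold of 0.05. By that rule 22% of all genes and features were higher and 21.9% lower, 43.9% in either direction, so 1 higher and 2 lower of 6 is close to the background and is no result about the genes as a group. The ratio had 1 sign on all 3 arrays for 5 of the 6, the exception being lin-14, against 67.3% of all genes and features. Their median was -0.09, against 0.01 for all genes and features. Their SD from gene to gene was 1.07, against 0.768 over all genes and features.

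**Figure D1:**
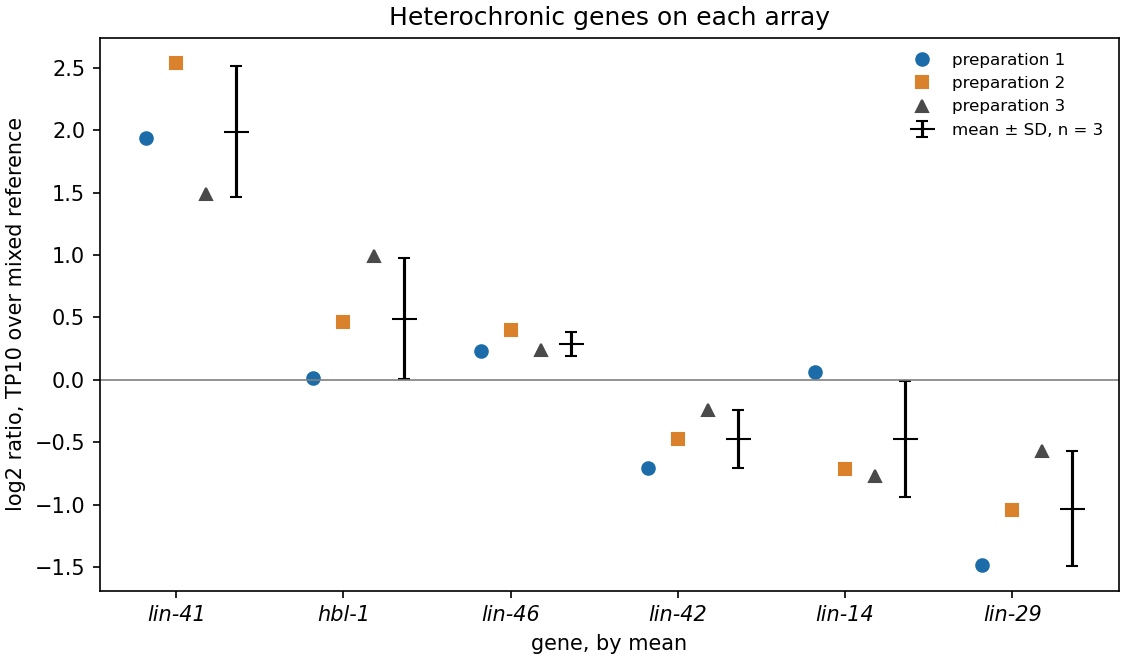
Log2 ratio of TP10 over the mixed reference (vertical axis) of the 6 measured heterochronic genes, ordered by mean; symbols are the 3 preparations and the bar is the mean ± SD (n = 3). lin-41 lies between 1.49 and 2.54 on every array and lin-29 between -1.48 and -0.57, while preparation 1 puts hbl-1 and lin-14 at 0.02 and 0.06.

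The early-acting genes came out at small values that differed between preparations. lin-14 encodes a nuclear protein that specifies the fates of the first larval stage and is the classical target of the microRNA lin-4. It had log2 ratios of 0.06, -0.71 and -0.77 in preparations 1, 2 and 3. Preparation 1 was therefore at the level of the reference and the others lay below it. The mean was -0.48 ± 0.46 (SD, n = 3), with a 95% interval of -0.88 to -0.07 for this gene alone and an adjusted p of 0.0592 (limma). That p missed the threshold. Without preparation 1 the mean was -0.74 and the adjusted p 0.00426, while without preparation 2 or 3 the mean was -0.36 or -0.33 (adjusted p = 0.247 and 0.274). Of these fits, only the one without preparation 1 put lin-14 past the threshold. The call also changed with some processing settings that kept all 3 preparations, given in the last section.

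hbl-1, the hunchback-like zinc finger gene that acts after lin-14 to hold the fates of the next larval stage, went the other way. Its log2 ratios were 0.02, 0.47 and 0.99 in preparations 1, 2 and 3, so preparation 1 was again at the reference level and preparation 3 nearly 2-fold above it. The mean was 0.49 ± 0.49 (SD, n = 3), with a 95% interval of 0.07 to 0.91 and an adjusted p of 0.0563 (limma), also short of the threshold. Leaving out preparation 1 gave 0.73 (adjusted p = 0.0101), leaving out preparation 2 gave 0.50 (adjusted p = 0.0999) and leaving out preparation 3 gave 0.24 (adjusted p = 0.394).

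The pair of early genes was thus alike in preparation 1 and apart in the others. hbl-1 minus lin-14 was -0.04, 1.18 and 1.76 log2 in preparations 1, 2 and 3, or 0.97 ± 0.92 on average (SD, n = 3), and hbl-1 was above lin-14 on 2 of 3 arrays. This pair was singled out after its values were seen, and the difference was not tested. Both genes lie on the X chromosome in the RefSeq annotation (WBcel235). Of 2256 measured X-linked genes, 24.7% had a mean below that of lin-14 and 91.3% a mean below that of hbl-1. Among those X-linked genes, 28.2% were lower and 10.2% higher.

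lin-46 encodes a protein related to the scaffold protein gephyrin that acts downstream of lin-28 and restrains HBL-1 activity. It was the steadiest of the 6, at 0.23, 0.40 and 0.24 in preparations 1, 2 and 3. All preparations were slightly above the reference. Its mean of 0.29 ± 0.10 (SD, n = 3) had a 95% interval of -0.02 to 0.60 and an adjusted p of 0.123 (limma), so no difference from the reference was detectable with these arrays. Only 12.3% of all genes and features had a smaller SD between arrays, whereas 89.4% had a smaller SD than lin-14 and 90.98% a smaller SD than hbl-1.

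lin-41 had the largest ratio of the 6 measured heterochronic genes. Preparations 1, 2 and 3 gave 1.94, 2.54 and 1.49 log2, or 3.83, 5.81 and 2.81 times the reference on a linear scale. Every preparation was well above the reference, and preparation 2 was the highest. The mean of 1.99 had a 95% interval of 1.56 to 2.42 and an adjusted p of 3.40e-05 (limma). lin-41 ranked 148 from the top among 19300 genes and features. It ranked 343, 66 and 303 on arrays 1, 2 and 3 taken alone. By comparison, 8.29% of all genes and features were called higher by at least 2-fold. Leaving out 1 preparation gave a mean between 1.71 and 2.24, with an adjusted p of at most 3.67e-04.

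**Figure D2:**
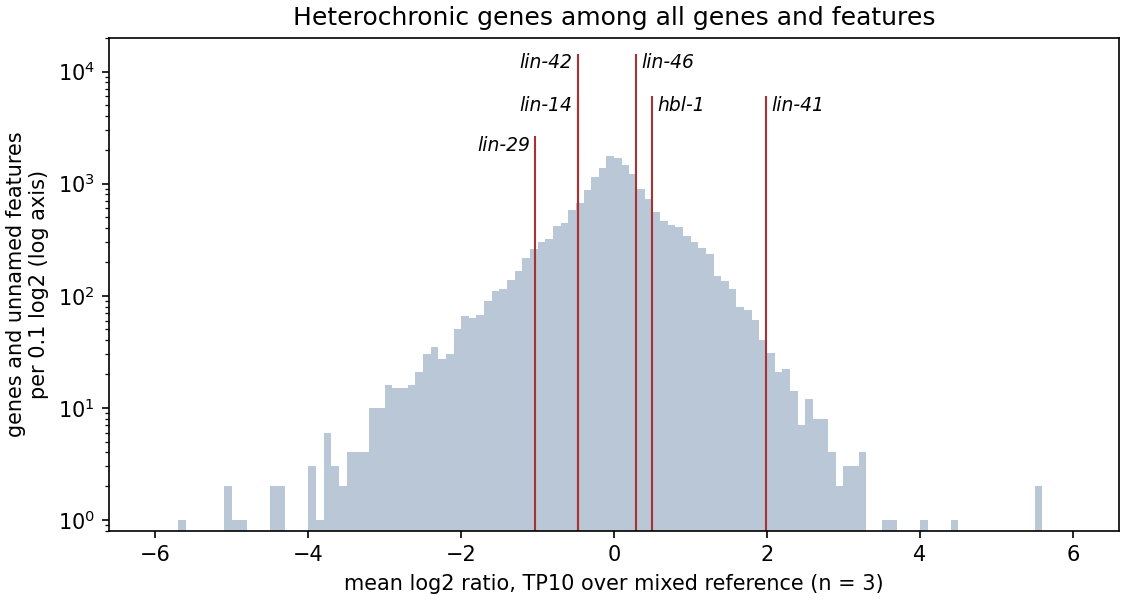
Number of genes and unnamed features (vertical axis, log scale) by mean log2 ratio of TP10 over the mixed reference (horizontal axis, n = 3), with red lines at the 6 heterochronic genes. lin-41 at 1.99 lies in the upper tail with 99.2% of values below it, while lin-29 at -1.03 has 7.85% below it.

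Genes that work with LIN-41 in oocytes, or whose mRNAs it binds there, were higher as well. All 11 measured of 12 listed genes were higher, in a list chosen with earlier results of these data known. Their means ran from 0.87 to 1.96 around a median of 1.50 log2, against 22% higher and a median of 0.01 over all genes and features. mex-3, which encodes a KH-domain RNA-binding protein of oocytes and early embryos, had the highest mean at 1.96 ± 0.17 (SD, n = 3). rnp-8, which encodes a partner of the cytoplasmic poly(A) polymerase GLD-2, stood at 1.93 ± 0.43. oma-1, which encodes a CCCH zinc finger protein needed for oocyte maturation, stood at 1.93 ± 0.72, with 2.73, 1.75 and 1.32 in preparations 1, 2 and 3. Preparation 1 was the highest for oma-1, whereas preparation 2 was the highest for lin-41.

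No gene of the oocyte list had a higher mean than lin-41. On arrays 1, 2 and 3, lin-41 exceeded the list's median by 0.27, 0.88 and 0.19 log2, or 0.44 ± 0.38 on average (SD, n = 3), a difference that was not tested. Markers of the germ line and oocytes were mostly higher too: 10 of 11 passed as higher and none as lower, against 22% and 21.9% of all genes and features. Their means ran from -0.23 to 2.73, and their medians on arrays 1, 2 and 3 were 2.41, 2.09 and 1.86. Among these markers, glh-1, which encodes a germ-granule helicase, was the highest at 2.73 ± 0.16, him-3, which encodes a meiotic chromosome axis protein, was the lowest called at 1.10 ± 0.44, and oma-1 and oma-2 are in both lists. lin-41 minus the marker median was -0.47, 0.45 and -0.37 on arrays 1, 2 and 3, or -0.13 ± 0.50 (SD, n = 3), so it lay within the spread of the marker genes. The part of germ line content in the lin-41 value was not tested.

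lin-29 was lower in every preparation, at -1.48, -1.04 and -0.57 log2 in preparations 1, 2 and 3. On a linear scale these are 0.358, 0.485 and 0.676 of the reference. Preparation 3 was closest to the reference, and array 3 also had the narrowest spread of ratios. In units of each array's own SD, lin-29 stood at -1.67, -1.23 and -0.84. The mean of -1.03 had a 95% interval of -1.44 to -0.62 and an adjusted p of 0.00111 (limma). It was between -1.26 and -0.80 with 1 preparation left out, and past the threshold each time.

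lin-41 and lin-29 stood at opposite ends of the 6 genes. The difference lin-41 minus lin-29 was 3.42, 3.58 and 2.06 log2 on arrays 1, 2 and 3, or 3.02 ± 0.84 (SD, n = 3). In the larva LIN-41 represses lin-29 translation in the skin, and the present values, from whole adults, do not locate either transcript. Markers of the hypodermis and seam cells, the tissue in which LIN-29 drives the adult program, held 4 lower and 2 higher genes out of 10, against 21.9% and 22% of all genes and features, and 1 higher gene with any 1 preparation left out. Their means ran from -1.23 to 0.71 around a median of -0.27. The lowest called, che-14, which encodes a protein of apical secretion in epithelia, stood at -1.23 ± 0.50, and the highest, lin-26, a zinc finger gene of epidermal fate, stood at 0.71 ± 0.50, or 0.42 and short of the threshold without preparation 1 (adjusted p = 0.0507, limma). lin-29 had a lower mean than 9 of the 10. Its difference from the marker median was -1.31, -0.61 and -0.24 on arrays 1, 2 and 3, or -0.72 ± 0.54 (SD, n = 3). Neuronal markers, from another tissue of the whole animal, held 5 lower genes and no higher one out of 8, against 21.9% and 22%. They ran from unc-13, which encodes a synaptic vesicle priming factor, at -2.19 ± 0.40 up to 0.15, and the highest called, the syntaxin gene unc-64, stood at -0.96 ± 0.22. The part of either tissue in the lin-29 value was not tested.

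lin-42 cycles with the molts of the larva, and its transcripts from different promoters encode proteins that share only some of their domains. It was the only measured gene of the 6 with more than 1 array feature. The averaged log2 ratios were -0.71, -0.47 and -0.24 in preparations 1, 2 and 3, all below the reference. The mean of -0.47 had a 95% interval of -0.81 to -0.14 and an adjusted p of 0.0266 (limma). That call ended without preparation 1 (-0.36, adjusted p = 0.0982) and without preparation 2 (-0.48, adjusted p = 0.0936), and held without preparation 3 (-0.59, adjusted p = 0.0284).

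The lin-42 features gave different answers. Feature A had -0.61, -0.11 and 0.15 log2 in preparations 1, 2 and 3, with a mean of -0.19 ± 0.39 (SD, n = 3) and an adjusted p of 0.406 (limma). Feature B had -0.80, -0.83 and -0.64, with a mean of -0.76 ± 0.10 and an adjusted p of 0.00155. Feature B was below the reference in every preparation, while feature A was on both sides of it. Feature A minus feature B was 0.19, 0.72 and 0.79 on arrays 1, 2 and 3. The gap of 0.57 between their means was larger than the median gap of 0.18 among the 429 genes with several features, and 10.96% of those genes had a gap at least as large. Which lin-42 transcripts each feature detects is not given in the sources used here, so the values were not assigned to isoforms.

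**Figure D3:**
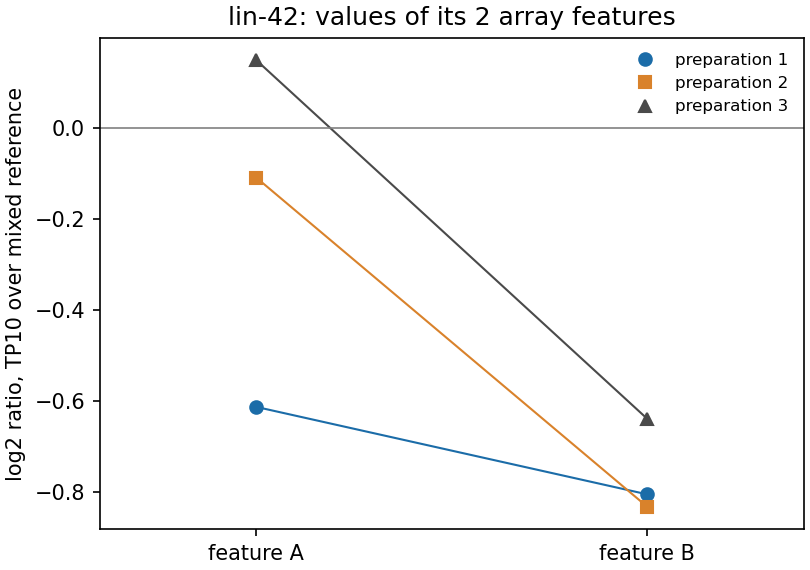
Log2 ratio of TP10 over the mixed reference (vertical axis) for the 2 array features of lin-42, with a line joining the values of each preparation. Feature B lies between -0.83 and -0.64, and feature A spreads from -0.61 to 0.15.

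Among markers of molting larvae, 5 of 10 passed as lower and none as higher, against 21.9% and 22% of all genes and features. Their means ran from -1.89 to 0.14 around a median of -0.60. dpy-7, named for this overlap, is counted as lower both here and among the hypodermis and seam markers. The lowest, mlt-10, stood at -1.89 ± 0.46, and nas-37, which encodes an astacin protease that helps shed the old cuticle, was the highest called at -0.76 ± 0.17. lin-42 lay close to their median, above it by 0.08, 0.17 and 0.16 on arrays 1, 2 and 3. The part of molting animals in the reference in the lin-42 value was not tested.

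In order of mean the 6 genes ran lin-41, hbl-1, lin-46, lin-42, lin-14 and lin-29. Neighbours that did not overlap over the 3 preparations were lin-41 above hbl-1, by 1.50 ± 0.87 log2 (SD, n = 3), and lin-46 above lin-42, by 0.76 ± 0.24. The remaining neighbours overlapped. hbl-1 exceeded lin-46 by 0.20 ± 0.49, lin-42 and lin-14 differed by 0.00 ± 0.68, and lin-14 exceeded lin-29 by 0.56 ± 0.90. None of these differences was tested.

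The other regulators of the pathway included higher and lower genes at shares near those of all genes and features. Of 21 measured of 22 listed, 7 were higher (33.3%, against 22% of all) and 6 lower (28.6%, against 21.9%). The other 8 did not pass, and the median of all 21 was 0.38 log2. Among the upstream controls of the microRNA lin-4, flh-1, which encodes a FLYWCH zinc finger repressor of lin-4 in the embryo, was the highest at 1.18 ± 0.17 (SD, n = 3; adjusted p = 1.23e-04, limma). Its paralogs flh-2 at -0.01 ± 0.10 and flh-3 at 0.53 ± 0.57 did not pass, although flh-3 did without preparation 3 (0.85, adjusted p = 0.00254). Both paralogs were named after their values were seen. On the activating side, pan-1, which encodes a membrane protein that works with the transcription factor MYRF-1, was the lowest of the list at -1.17 ± 0.29. myrf-1 itself, a promoter of lin-4 expression, was lower at -0.44 ± 0.04. myrf-2, its paralog and named after its value was seen, was lower at -0.40 ± 0.03. The myrf-1 call ended without preparation 2 or 3 (adjusted p = 0.0948 and 0.0991, limma), and the myrf-2 call without any 1 of the 3 (adjusted p = 0.0680 to 0.169). With 1 preparation left out the means stayed at -0.46 to -0.43 for myrf-1 and -0.41 to -0.39 for myrf-2. No single array set these values.

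The list holds 4 nuclear receptor genes. daf-12, the receptor for the steroid hormone that couples larval timing to growth conditions and to let-7 family microRNAs, had -1.26, -0.42 and -0.70 in preparations 1, 2 and 3 and was lower at -0.79 ± 0.43 (SD, n = 3; adjusted p = 0.00441, limma). nhr-23, which drives molting genes in the larva, had 0.99, 1.48 and 0.72 and was higher at 1.06 ± 0.39 (adjusted p = 6.21e-04). The others, nhr-85 at 0.42 ± 0.63 (adjusted p = 0.148) and nhr-25 at -0.37 ± 0.35 (adjusted p = 0.0929), did not pass, although nhr-85 did without preparation 3 (0.65, adjusted p = 0.0353). Both were named after their values were seen. nhl-2, which encodes a TRIM-NHL cofactor of let-7 and other microRNAs in the same protein class as LIN-41, was higher at 0.96 ± 0.40. The count of 6 lower regulators was 2 to 3 with any 1 of the preparations left out, and the 7 higher became 5 to 8.

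Most genes of the machinery that makes and uses microRNAs were higher: of 15 measured of 16 listed, 12 passed as higher and none as lower, against 22% and 21.9% of all genes and features. The median of the 15 was 0.94 log2. This list too was chosen with earlier results of these data known. cgh-1, a germ line helicase gene whose product joins NHL-2 in let-7 repression, was the highest at 2.57 ± 0.55 (SD, n = 3; adjusted p = 1.01e-05, limma). tsn-1 and vig-1, which encode subunits found with the Argonaute complex, stood at 1.51 ± 0.34 and 1.50 ± 0.24. The genes not past the threshold were alg-1, which encodes the Argonaute that binds most microRNAs in the larval soma, at 0.31 ± 0.07, and the GW182-like cofactor genes ain-1 at -0.11 ± 0.31 and ain-2 at 0.21 ± 0.13. Their names were taken after the values were seen. The germ line markers given beside lin-41 were mostly higher too, and the part of germ line content in this list was not tested. Leaving out any 1 preparation again gave 12 higher genes.

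**Figure D4:**
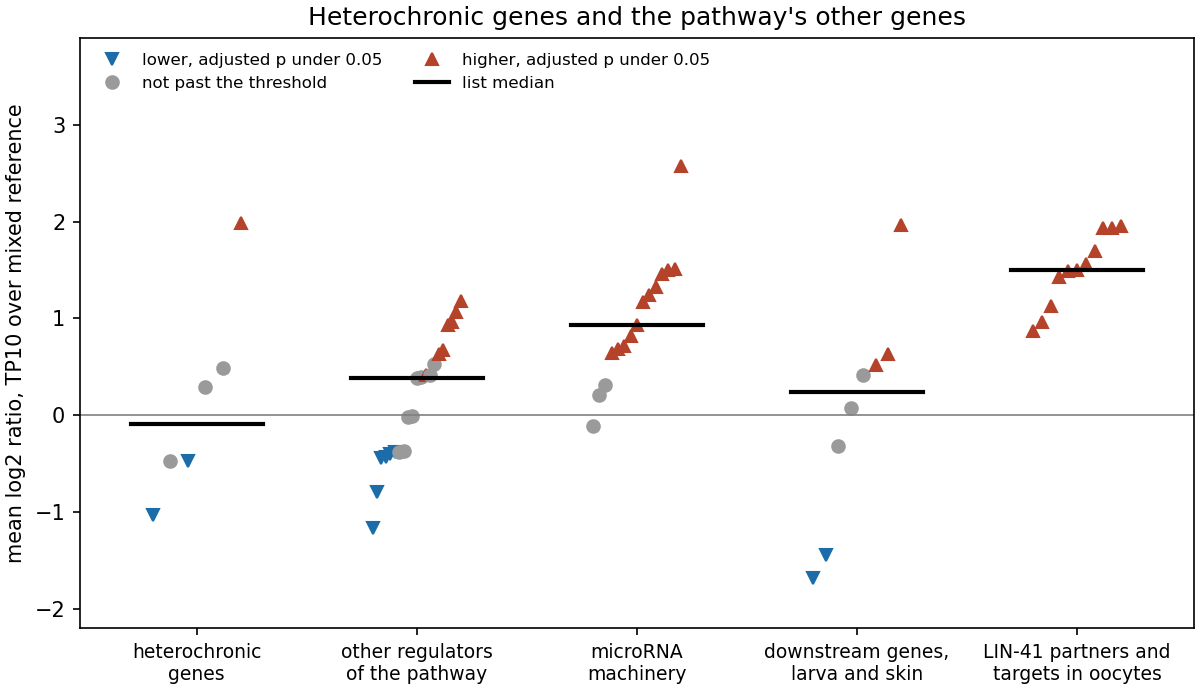
Mean log2 ratio of TP10 over the mixed reference (vertical axis) of the measured heterochronic genes and of 4 lists of other pathway genes; each symbol is 1 gene, its shape gives the limma call and the black line is the list median. All 11 oocyte genes of LIN-41 and 12 of 15 microRNA machinery genes are higher, while the heterochronic genes, the other regulators and the downstream genes lie on both sides of 0.

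Genes downstream of the pathway in the larva and skin held 3 higher and 2 lower genes among 8 measured of 9 listed, or 37.5% and 25%, not far from the 22% and 21.9% over all genes and features. Their median was 0.25 log2. col-19, the adult-specific cuticle collagen gene whose expression requires LIN-29, was higher in every preparation at 2.12, 1.84 and 1.93, with a mean of 1.97 ± 0.14 (SD, n = 3; adjusted p = 7.10e-06, limma). Its mean was close to the 1.99 of lin-41, and its sign was opposite to that of lin-29. col-7, another adult collagen gene under LIN-29 control, was higher at 0.52 ± 0.11. col-17, a larval collagen gene that LIN-29 shuts off, was lower at -1.45 ± 0.24, with -1.72, -1.31 and -1.30 in preparations 1, 2 and 3. ins-33, an insulin-like gene that LIN-14 represses, was the lowest at -1.69 ± 0.22.

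mab-10, which encodes a NAB-type cofactor that acts with LIN-29 and is repressed by larval LIN-41, was higher at 0.63 ± 0.27 (SD, n = 3). It is counted as higher both in the downstream list and among the other regulators. It had 0.65, 0.90 and 0.36 in preparations 1, 2 and 3, and the call ended without preparation 2 (adjusted p = 0.0710, limma). The col-7 call also ended without preparation 2 (adjusted p = 0.0968), which left 1 higher gene in the list. Of the listed yolk protein genes of the adult hermaphrodite, vit-2 was higher at 1.00 ± 0.27. vit-5 at 0.27 ± 0.23 and vit-6 at 0.41 ± 0.42 did not pass, and vit-3 and vit-4 were not measured. The intestine list that holds them had 2 higher and 3 lower genes among 7 measured. These are 28.6% and 42.9%, against 22% and 21.9% of all genes and features. Of 6 early embryonic genes measured of 10 listed, 1 was higher and 2 lower. These are 16.7% and 33.3%, close to the 22% and 21.9% over all genes and features and no result about the list. end-3, an endoderm GATA factor gene, was higher at 0.58 ± 0.33. med-1 at -0.87 ± 0.14 and tbx-38 at -0.47 ± 0.36 (named after its value was seen) were lower. The end-3 call ended without preparation 1 (adjusted p = 0.0702), and that of tbx-38 without preparation 1 or 2 (adjusted p = 0.194 and 0.0801) or with array weights (adjusted p = 0.0560).

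For each heterochronic gene, the gene with a symbol whose ratios over the 3 arrays lay nearest was found by the root mean square difference, among 9246 genes with symbols. lin-41 was nearest to ani-2, which encodes an anillin of the germ line, with 1.85, 2.39 and 1.61 in preparations 1, 2 and 3 and a difference of 0.12 log2. The nearest gene to lin-29 was del-10, with a difference of 0.07, and that to hbl-1 was ttr-58, with a difference of 0.07. For lin-14 it was cpt-5, with a difference of 0.03, for lin-42 mpst-4, with 0.02, and for lin-46 rpl-30, a ribosomal protein gene, with 0.01. These likenesses rest on 3 arrays and are given as a description.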

How the data were processed

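Messenger RNA was compared on 3 two-colour arrays, each with 1 TP10 preparation in channel 2 and the wild-type mixed reference in channel 1, per the labels. The deposited values are the authors' log2 ratios. The scale was read from the values: taken as a power of 2, each value gave whole thousandths (tolerance 0.01 thousandths) for at least 99.98% of them on each array. How the authors corrected background, filtered spots and normalized within arrays is not given in the sources used here. The deposited array medians of -0.00868, 0.0172 and 0.0101 lay near 0, but whether the authors had centred the ratios is not given. Each array was centred on its median here, which hides any shift shared by most genes.

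The platform annotation gave 1 gene for 15655 of 20000 features, several for 198 and no entry for 4147. RefSeq (WBcel235) held 15569 of the 15655 by identifier. Features with values on all 3 arrays (19748) were kept, those of 1 gene averaged, and each array centred on its median. Means were compared with 0, two-sided, in an intercept-only model of limma 3.58.1 (lmFit and eBayes, R 4.3.3). Benjamini-Hochberg adjustment ran over all 19300. The 95% intervals are unadjusted. Variation of the reference RNA, and dye bias shared by all arrays, lie outside the error. The fit was tested on simulated data.

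The heterochronic genes and all lists were chosen with earlier results of these data known. Lists are described by counts and medians, without a test of the list. Named were all measured heterochronic genes, from each pathway list the 3 highest and 3 lowest genes past the threshold with 1 sign on every array, the nearest gene to each heterochronic gene, and the highest and lowest called gene of each marker list set beside a result. Of the marker lists, the sperm list held 1 lower gene (spe-11, -0.80 ± 0.45) and no higher one of 6. Over all genes and features 21.9% were lower and 22% higher. Without preparation 1 the sperm list held 3 higher genes, and 3870 of all genes and features were higher. The intestine list held 3 lower (lowest ifb-2, -0.96 ± 0.10) and 2 higher of 7, against the same shares. Without preparation 2 it held 1 of each, and 3281 of all genes and features were lower and 3509 higher. Alternatives covered centring, scaling, quantile normalization, missing values, a filter on high SD, features kept apart, robust and unmoderated variances, array weights and leaving out each preparation. No sequences are shown because no sequence table was used.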

Additional observations from a re-analysis of the deposited data

How the results depend on the processing

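No heterochronic gene changed direction under any alternative run. Among other named genes, 2 that were never past the threshold changed sign: flh-2 (0.014 with array weights, 0.0092 with quantile normalization, 0.0072 when scaled to 1 spread, and -0.047 to 0.045 with 1 preparation left out) and ain-1 (-0.27 to 0.035 with 1 preparation left out). The cause was not tested. lin-46 stayed short of the adjusted threshold throughout, at 0.23 to 0.32. A one-sample test without moderation (2 residual degrees of freedom) ended every call on the heterochronic genes (lin-41 1.99, adjusted p = 0.106; lin-29 -1.03, adjusted p = 0.155; lin-42 -0.47, adjusted p = 0.170). It left 0 higher and 0 lower heterochronic genes and 0 calls in every pathway list, and 1 call over all genes (0 higher, 1 lower). At an unadjusted p under 0.05 it had 2 higher heterochronic genes, lin-41 and lin-46, and 0 lower. It also had 12 higher microRNA machinery genes, 10 higher oocyte genes, 5 higher and 4 lower regulators, and 2 higher and 2 lower downstream genes. Over all genes it had 3379 higher and 3450 lower.

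hbl-1 passed with array weights (0.58, adjusted p = 0.0157) and quantile normalization (0.57, adjusted p = 0.0389). lin-14 passed with array weights (-0.59, adjusted p = 0.0110), quantile normalization (-0.53, adjusted p = 0.0363) and scaling to 1 spread (-0.55, adjusted p = 0.0453). It also passed when the 10% of genes with the highest SD were dropped (-0.48, adjusted p = 0.00264). That filter selects on the SD used by the test, which lowers p-values by construction. Under it lin-29 had an adjusted p of 7.37e-12 (limma) at an unchanged mean of -1.03. The lin-14 pass under this filter is therefore no support for a difference. That filter removes lin-41 and hbl-1, which left 0 higher heterochronic genes by its own construction, while array weights and quantile normalization gave 2. lin-42 lost its call for feature A (-0.19). Array weights were 0.594, 1.39 and 1.21 for preparations 1, 2 and 3.

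With 1 preparation left out, lin-14 ranged from -0.74 to -0.33, hbl-1 from 0.24 to 0.73, lin-42 from -0.59 to -0.36, lin-29 from -1.26 to -0.80 and lin-41 from 1.71 to 2.24. Higher heterochronic genes numbered 1 to 2 and lower ones 1 to 2, lower regulators 2 to 3, and higher downstream genes 1 to 3. The count over all genes was 6790 to 7811, and 8425 to 9193 under the other settings except the unmoderated test. No paired analysis was possible because there is 1 group, set against a reference on the same array.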
